A study of Mus musculus with 4 samples.

Results

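The 35 genes described here encode enzymes of glutathione, thioredoxin and superoxide metabolism and their relatives. Membership was set by gene symbol, with earlier results of these data known. It took every gene with a clone of 1 symbol that is spelled like those of certain families. These were glutathione transferases, glutathione peroxidases, glutathione synthesis, peroxiredoxins, thioredoxins, glutaredoxins, methionine sulfoxide reductases, superoxide dismutases, catalase and quinone reductases. Txnip, an inhibitor of thioredoxin and not itself such an enzyme, is a member by its symbol. They come from 41 clones and stand among 8106 genes in all. The glutathione genes number 13, the peroxiredoxin and thioredoxin genes 19, and the dismutase and catalase genes 3. Another 14 clones carry several symbols of which 1 or more matches, and these were left out. No quinone reductase, thioredoxin reductase, sulfiredoxin or pi-class transferase was analysed here.

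Each array set the heart ventricles, septum included, of 1 high-salt mouse against those of 1 low-salt mouse. High-salt mice drank 1% NaCl for 5 weeks and low-salt mice drank tap water. All 6 mice, 3 in each group, were males aged 12 to 13 weeks of a wild-type 129Ola/C57BL/6J backcross labelled 1-renin, had 1 kidney removed, ate food with 0.5 mg Na per g and received deoxycorticosterone acetate (DOCA), a mineralocorticoid, so no group lacked DOCA. Array 1 held pair 1 and array 3 held pair 3, while arrays 2 and 4 held the same 2 mice of pair 2 with the dyes exchanged. High-salt RNA carried Cy3 on arrays 1 and 2 and Cy5 on arrays 3 and 4. The question of the design was which cardiac genes differ with salt intake. In ventricle pieces, fewer cells of a type and less RNA per cell cannot be told apart, and ratios hold no level with which the tissue's own markers could be checked.

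Superoxide dismutases turn superoxide into hydrogen peroxide, which catalase, glutathione peroxidases and peroxiredoxins then remove. Glutathione peroxidases draw electrons from glutathione, while peroxiredoxins and methionine sulfoxide reductases draw them from thioredoxin, and both supplies depend on NADPH. In the heart, where mitochondria are dense, part of this defence sits in the mitochondrial matrix. The transcription factor Nrf2 (gene Nfe2l2) drives many of these genes through antioxidant response elements in their promoters.

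All values are log ratios as deposited, taken as log2 and read as high over low salt. This direction was taken from the array titles, which word the comparison this way for all 4 arrays, and is not settled. At 23 print positions that recur without a gene name in all 32 print blocks (736 features, taken as control spots), ratios correlated at r = 0.93 and 0.87 between arrays of the same dye orientation and at -0.85 to -0.96 between arrays of opposite orientation. With swapped arrays already turned, the ratios of these positions follow the dye, and with arrays not turned they follow the RNA; which of these holds was not tested. Over the 12480 clones of 1 symbol, arrays 1 and 3 correlated at -0.35, arrays 2 and 3 at -0.38 and the dye-exchanged arrays 2 and 4, of the same mice, at -0.10, against 0.58 and 0.46 within a dye orientation. Over the 35 antioxidant genes these values were -0.097, -0.13 and 0.27, against 0.49 and 0.55. The main results are therefore also given with arrays 1 and 2 turned, that is multiplied by -1, as ratios of Cy5 over Cy3 would need.

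Promoters of 3 genes on which the description turns are shown first, from RefSeq in build GRCm38.p6, as 250 bases before and 50 after a start site, 5′ to 3′ on the gene's strand. Gstm7 and Prdx1 are shown because they kept 1 sign on all arrays and hold a match to the antioxidant response element core, and Txnip because its mean was the highest. Capitals mark the match, to TGACNNNGC in Gstm7 and Prdx1 and to the E-box-like pair of the carbohydrate response element in Txnip, each searched on both strands. The Gstm7 window is at chr3:107931565-107931864 on the minus strand, the Prdx1 window at chr4:116685349-116685648 on the plus strand and the Txnip window at chr3:96557707-96558006 on the plus strand.
Gstm7: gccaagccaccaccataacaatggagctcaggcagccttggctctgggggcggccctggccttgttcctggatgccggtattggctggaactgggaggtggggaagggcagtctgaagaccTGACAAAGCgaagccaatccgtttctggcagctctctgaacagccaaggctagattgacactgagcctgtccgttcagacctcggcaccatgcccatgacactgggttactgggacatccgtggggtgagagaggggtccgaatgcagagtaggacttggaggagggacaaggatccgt
Prdx1: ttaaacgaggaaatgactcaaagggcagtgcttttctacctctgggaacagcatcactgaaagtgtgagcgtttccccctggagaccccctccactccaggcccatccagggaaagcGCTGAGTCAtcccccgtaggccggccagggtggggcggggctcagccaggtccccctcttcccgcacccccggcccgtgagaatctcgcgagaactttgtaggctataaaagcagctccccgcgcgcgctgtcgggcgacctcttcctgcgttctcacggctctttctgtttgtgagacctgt
Txnip: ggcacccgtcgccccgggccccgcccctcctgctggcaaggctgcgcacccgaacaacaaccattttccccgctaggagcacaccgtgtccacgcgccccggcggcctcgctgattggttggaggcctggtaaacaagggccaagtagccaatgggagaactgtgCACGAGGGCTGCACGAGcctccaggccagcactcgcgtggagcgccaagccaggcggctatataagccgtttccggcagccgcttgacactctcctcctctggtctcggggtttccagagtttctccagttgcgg

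Of the 35 genes, 30 had a promoter in that table. The antioxidant core was in a window of 7 of the 30 (23.3%), against 14.0% of all 27025 genes in the table. The other matches were in Gstm5, Mgst1, Sod1, Txndc2 and Txndc5. The E-box-like pair was in Txnip alone among the 30 (3.33%), against 1.23% of all genes. None of the 30 genes held both patterns. Both patterns were chosen after values had been seen, so these shares are a description and no test. A match describes letters in this window and is not evidence of a bound site.

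No antioxidant gene passed the test across all genes. By limma with Benjamini-Hochberg adjustment over all 8106 genes, 0 of the 35 and 0% of all genes had an adjusted p under 0.05. The smallest adjusted p among the 35 was 0.76, for Gstm7. At an unadjusted p under 0.05 there were 5 of 35 (14.3%), 2 with means above 0 and 3 below, against 5.44% of all genes, of which 2.81% lay above and 2.63% below. These 5 were Txnip and Glrx above 0 and Sod2, Gstm7 and Glrx5 below 0. Without pair 2 the count was 1 of 35 (2.86%), Txnip, against 1.79% of all genes. With arrays 1 and 2 turned, 7 of 35 (20.0%) were under 0.05, against 20.8% of all genes, and none of them was among these 5. Pairs 1 and 3 had the same sign in each of these 5, so turning array 1 sets them against each other. Means lay below 0 for 14 of the 35 (40.0%), against 50.2% of all genes, and with arrays 1 and 2 turned for 16 (45.7%), against 53.3%.

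**Figure D1:**
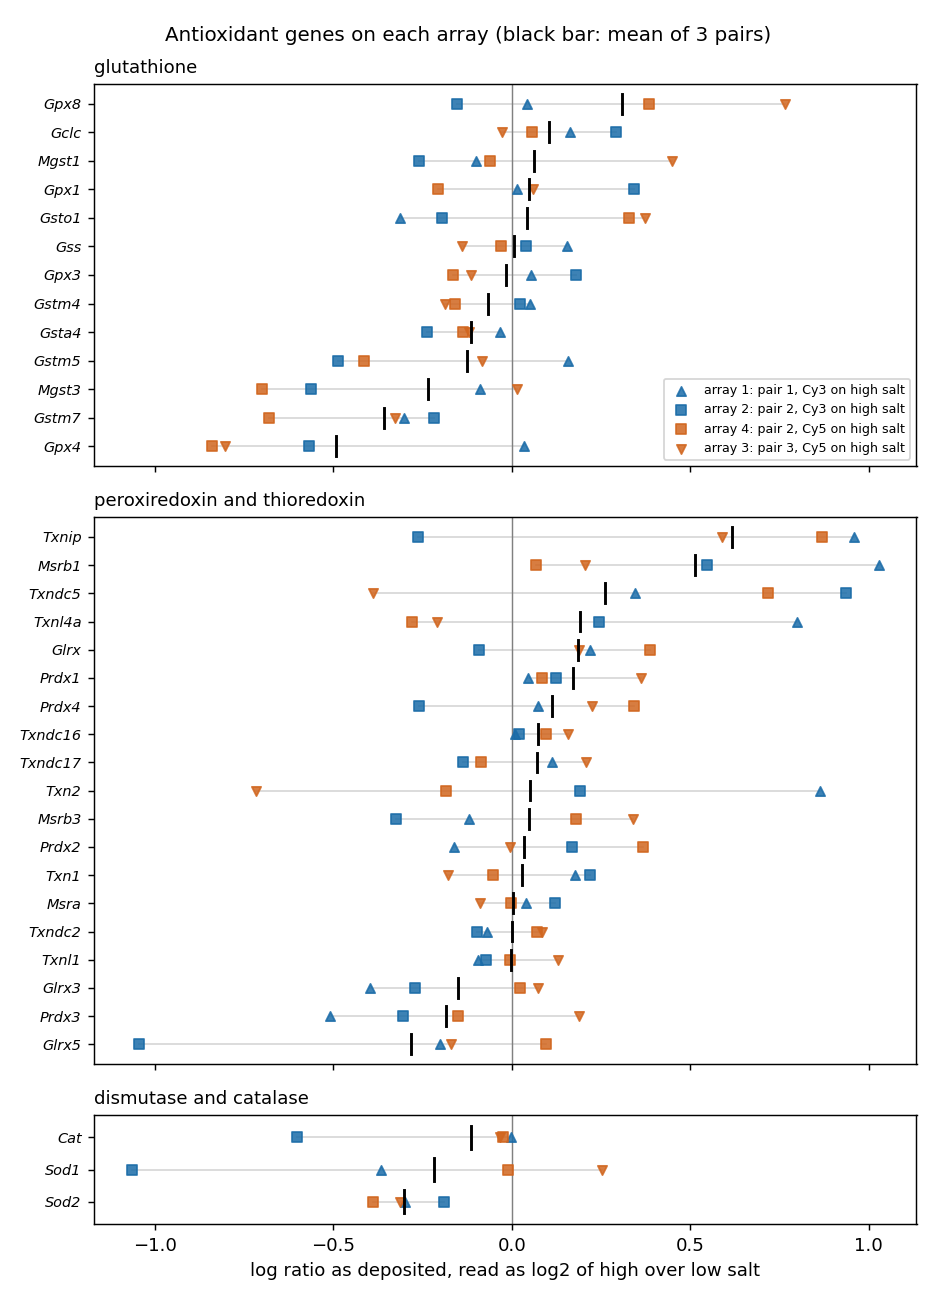
Log2 ratio of high over low salt, as deposited, of each of the 35 antioxidant genes (rows, by subgroup) on each of the 4 arrays (symbols, blue for Cy3 and orange for Cy5 on high salt); the black bar is the mean of the 3 pairs. Sod2 and Gstm7 lie left of 0 on all arrays, while Txn2 spans -0.72 to 0.86 and Sod1 spans -1.07 to 0.25.

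The dismutase and catalase genes all had means below 0 as deposited, against 50.2% of all genes. With arrays 1 and 2 turned 1 of 3 did, against 53.3% of all genes. Sod2, the manganese superoxide dismutase of the mitochondrial matrix, stood at -0.30, -0.19, -0.31 and -0.39 on arrays 1 to 4. Every value is below 0, with array 2 nearest to 0 and array 4 farthest. Its mean was -0.30 ± 0.011 (SD, n = 3 pairs), a percent change of -18.8% with a 95% interval from limma of -27.0% to -9.70% that is not corrected for the number of genes tested (limma adjusted p = 0.78). The SD of 0.011 is small beside the difference of 0.20 between arrays 2 and 4, which held the same mice, so it understates the error of 1 array. With arrays 1 and 2 turned, Sod2 was at -0.037 ± 0.31.

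Sod1, the copper-zinc dismutase of the cytosol, varied more between arrays. It stood at -0.37 and -1.07 on arrays 1 and 2, and at 0.25 and -0.010 on arrays 3 and 4. The values with Cy3 on high salt are the low ones, and the 2 arrays of the same mice differ by 1.06. The mean was -0.22 ± 0.42 (limma adjusted p = 1.0), with an interval from -0.75 to 0.31 that spans 0, so neither a rise nor a fall was detected. Cat, the peroxisomal enzyme that splits hydrogen peroxide, stood at -0.0014, -0.60, -0.032 and -0.024 on arrays 1 to 4. Only array 2 lies away from 0, and the mean of -0.12 ± 0.17 rests on it, being -0.019 with pair 2 read from array 4 alone. The mean of Sod1 was then -0.041. Turning arrays 1 and 2 put Sod1 at 0.38 ± 0.14 (limma adjusted p = 0.11) and Cat at 0.086 ± 0.18.

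Among the glutathione genes, 7 of 13 had means below 0 as deposited, against 50.2% of all genes. With arrays 1 and 2 turned 9 of 13 did, against 53.3% of all genes. Gstm7, a mu-class transferase that joins glutathione to electrophiles, stood at -0.30, -0.22, -0.33 and -0.68 on arrays 1 to 4. All arrays are below 0, with array 4 the lowest. Its mean was -0.36 ± 0.078 (SD, n = 3 pairs), a percent change of -22.0% with an uncorrected 95% interval of -31.2% to -11.7% (limma adjusted p = 0.76). Turning arrays 1 and 2 moved it to -0.085 ± 0.34. Mu-class genes are close paralogs on chromosome 3, and cross-hybridisation of their clones was not tested. The other 2 with a clone of their own, Gstm5 and Gstm4, had means of -0.13 and -0.067, and neither kept 1 sign.

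Gpx4, the peroxidase that reduces phospholipid hydroperoxides in membranes, had the lowest mean of the 35 genes. It stood at 0.034 on array 1, and at -0.57, -0.80 and -0.84 on arrays 2, 3 and 4. Pair 1 stands apart from pairs 2 and 3, which are both far below 0. The mean was -0.49 ± 0.46 (limma adjusted p = 0.93), and it stayed below 0 with arrays 1 and 2 turned, at -0.32 ± 0.42. Gpx8, a peroxidase of the endoplasmic reticulum membrane, had the highest mean of the glutathione genes with all pairs. It stood at 0.043, -0.15, 0.76 and 0.39 on arrays 1 to 4, high where Cy5 was on high salt and near 0 or below otherwise. Its mean was 0.31 ± 0.40, and 0.33 ± 0.41 with the arrays turned. Without pair 3 it was 0.080, below Gclc at 0.17. Gpx1, the selenium peroxidase of cytosol and mitochondria, and Gpx3, the secreted form, had means of 0.048 and -0.017.

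Gsta4, an alpha-class transferase that detoxifies lipid aldehydes, stood at -0.034, -0.24, -0.12 and -0.14 on arrays 1 to 4. It is below 0 on all arrays but only slightly, with a mean of -0.11 ± 0.077 (limma adjusted p = 1.0). Turning arrays 1 and 2, which ends any single sign, left a mean of -0.013 ± 0.094. Mgst3, a membrane-bound enzyme that uses glutathione, averaged -0.24 ± 0.35 with both arrays of pair 2 low, at -0.56 and -0.70, and pairs 1 and 3 near 0, at -0.089 and 0.016. Its mean was -0.037 without pair 2. Its membrane-bound relative Mgst1 and the omega-class Gsto1, a thiol transferase, had means of 0.063 and 0.042. The enzymes of glutathione synthesis lay near 0, at 0.10 ± 0.11 for Gclc, the catalytic subunit of the first step, and 0.0067 ± 0.15 for Gss, which completes the tripeptide.

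Among the peroxiredoxin and thioredoxin genes, 15 of 19 had means above 0 as deposited and 13 of 19 with arrays 1 and 2 turned, against 4040 and 3784 of all 8106 genes. Txnip, which binds and inhibits thioredoxin and lowers glucose uptake, had the highest mean of all 35 genes. It stood at 0.96, -0.26, 0.59 and 0.87 on arrays 1 to 4. Array 2 alone is below 0, although array 4 measured the same mice with the dyes exchanged. The mean was 0.62 ± 0.33 (SD, n = 3 pairs; limma adjusted p = 0.86), a percent change of 53.4% with an uncorrected 95% interval of 14.0% to 106%, and with arrays 1 and 2 turned it was 0.065 ± 0.89. Read from array 4 alone for pair 2 the mean was 0.81, and from array 2 alone 0.43.

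Msrb1, a selenoprotein that repairs oxidised methionine, stood at 1.03, 0.55, 0.21 and 0.069 on arrays 1 to 4. All arrays are above 0, with those of Cy3 on high salt the highest. Its mean was 0.51 ± 0.45 (limma adjusted p = 0.93), and turning arrays 1 and 2 gave -0.35 ± 0.63. Without pair 1 it was 0.26. The other reductases of oxidised methionine, Msra and Msrb3, had means near 0, at 0.0041 and 0.050.

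Glrx, the cytosolic glutaredoxin that removes glutathione from proteins, stood at 0.22, -0.092, 0.19 and 0.39 on arrays 1 to 4. Array 2 is again the 1 value below 0. The mean was 0.19 ± 0.036 (limma adjusted p = 0.86), where the SD is far smaller than the difference of 0.48 between the 2 arrays of pair 2. After turning arrays 1 and 2 it was 0.070 ± 0.25. Glrx5, the mitochondrial glutaredoxin of iron-sulfur cluster assembly, stood at -0.20, -1.04, -0.17 and 0.095. Its value on array 2 lies 1.14 below that of array 4, and the mean of -0.28 ± 0.17 (limma adjusted p = 0.87) was -0.092 with pair 2 read from array 4 alone. Glrx3, a cytosolic relative that also carries iron-sulfur clusters, averaged -0.15 ± 0.24.

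Prdx1, an abundant cytosolic peroxiredoxin, stood at 0.046, 0.12, 0.36 and 0.086 on arrays 1 to 4. It is above 0 on all arrays, but neither of its 2 clones is. The mean was 0.17 ± 0.17 (limma adjusted p = 0.99), and 0.099 ± 0.23 with arrays 1 and 2 turned. Without pair 3 it was 0.075. Of the other peroxiredoxins, the cytosolic Prdx2 averaged 0.034 ± 0.22, the mitochondrial Prdx3 -0.18 ± 0.35 and the endoplasmic reticulum form Prdx4 0.11 ± 0.098. Txndc16, a protein with thioredoxin domains, stood at 0.0091, 0.019, 0.16 and 0.095 on arrays 1 to 4. All are above 0 but the first 2 barely so, and the mean was 0.074 ± 0.075 (limma adjusted p = 1.0), 0.062 ± 0.086 turned and 0.033 without pair 3.

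The thioredoxin Txn2 and its relative Txnl4a differed in sign between the dye orientations. They are among 11 of the 35 genes (31.4%) that did so, against 31.3% of all genes. Txn2, the mitochondrial thioredoxin that serves Prdx3, stood at 0.86, 0.19, -0.72 and -0.18 on arrays 1 to 4. Both arrays with Cy3 on high salt are above 0 and both with Cy5 are below, so the mean of 0.051 ± 0.79 cancels large values. Its difference of -0.98 between Cy5 and Cy3 arrays was the largest in size of the 35 genes. Txnl4a, a splicing factor with a thioredoxin fold, stood at 0.80, 0.24, -0.21 and -0.28, with a dye difference of -0.77 and a mean of 0.19 ± 0.53. That of Sod1, at 0.84, was the second of the 3 largest. Turned, Txn2 averaged -0.59 ± 0.36 (limma adjusted p = 0.16) and Txnl4a -0.42 ± 0.33 (limma adjusted p = 0.22). The cytosolic Txn1, also above 0 on both Cy3 arrays and below on both Cy5 arrays, averaged 0.028 ± 0.18, and -0.16 ± 0.024 turned.

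The remaining 4 genes carry thioredoxin domains. Txndc5, a disulfide isomerase of the endoplasmic reticulum, had a mean of 0.26 ± 0.61 that became -0.022 without pair 2. Txndc17, a cytosolic thioredoxin-related protein, averaged 0.071 ± 0.16, Txndc2, a protein of developing sperm, 0.0015 ± 0.078, and Txnl1, a proteasome-associated thioredoxin, -0.0013 ± 0.12.

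**Figure D2:**
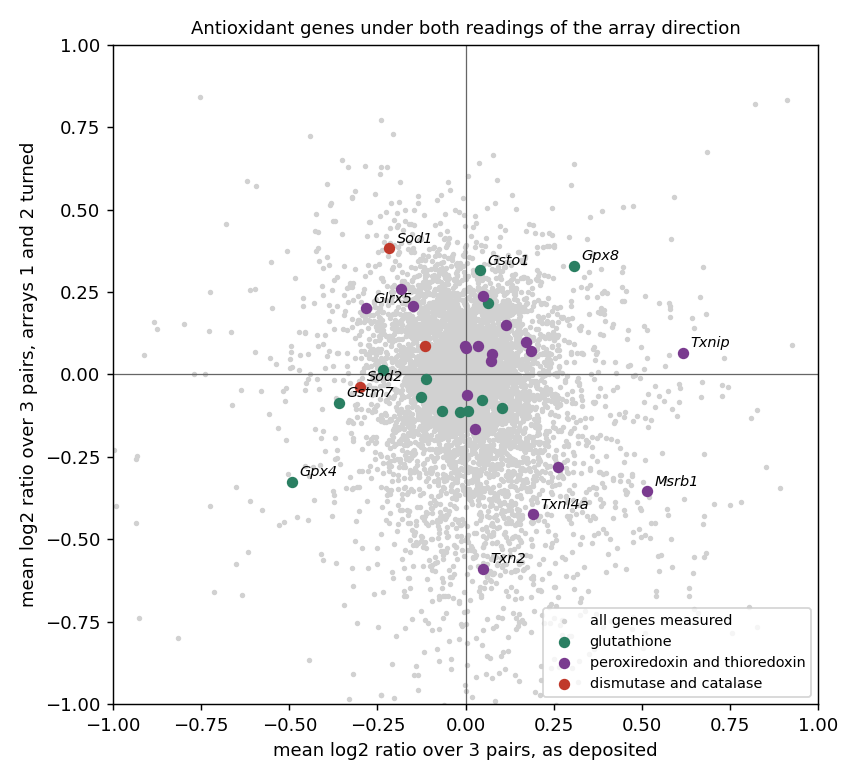
Mean log2 ratio over 3 pairs as deposited (x axis) against the mean with arrays 1 and 2 turned (y axis), for the antioxidant genes (coloured by subgroup) and all genes measured (grey; 92 genes beyond 1 on either axis, none of them antioxidant members, are not drawn). Txnip and Gstm7 lie far from 0 on the x axis and near 0 on the y axis, and Txn2 the reverse.

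A single sign on all 4 arrays was kept by 7 of the 35 genes (20.0%), against 14.8% of all genes. The 3 above 0, against 7.01% of all genes, were Msrb1, Prdx1 and Txndc16. The 4 below 0, against 7.75% of all genes, were Sod2, Cat, Gstm7 and Gsta4. With arrays 1 and 2 turned, 11 of 35 (31.4%) kept 1 sign, against 31.3% of all genes. They cannot include these 7, since turning 2 arrays gives a gene with 1 sign both signs. Gsto1, at 0.32 ± 0.055 turned, then had the smallest adjusted p (limma, 0.097). Both shares are near those of all genes.

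The medians of the 3 subgroups were small and differed in sign. The median log2 ratio over pairs was -0.22 for the dismutase and catalase genes, -0.017 for the glutathione genes and 0.051 for the peroxiredoxin and thioredoxin genes, against -0.00026 for all genes. The glutathione median minus the thioredoxin median was -0.012, -0.12, -0.21 and -0.23 on arrays 1 to 4, and turning arrays 1 and 2 reverses this order on both, with medians of -0.034 for glutathione and -0.046 for thioredoxin genes on array 1. The glutathione median itself was 0.034 on array 1 and -0.20, -0.084 and -0.16 on arrays 2 to 4. That of the thioredoxin genes was 0.046, -0.073, 0.13 and 0.071 on arrays 1 to 4. The dismutase and catalase median was far below 0 with Cy3 on high salt, at -0.30 and -0.60 on arrays 1 and 2, and near 0 with Cy5, at -0.032 and -0.024 on arrays 3 and 4. Turned, the medians were 0.086 for dismutases and catalase, -0.076 for glutathione genes and 0.070 for thioredoxin genes. Without pair 2 they were -0.056, 0.0072 and 0.074, so the glutathione median changed sign. No test was made of these differences, since genes of a subgroup are not replicates.

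**Figure D3:**
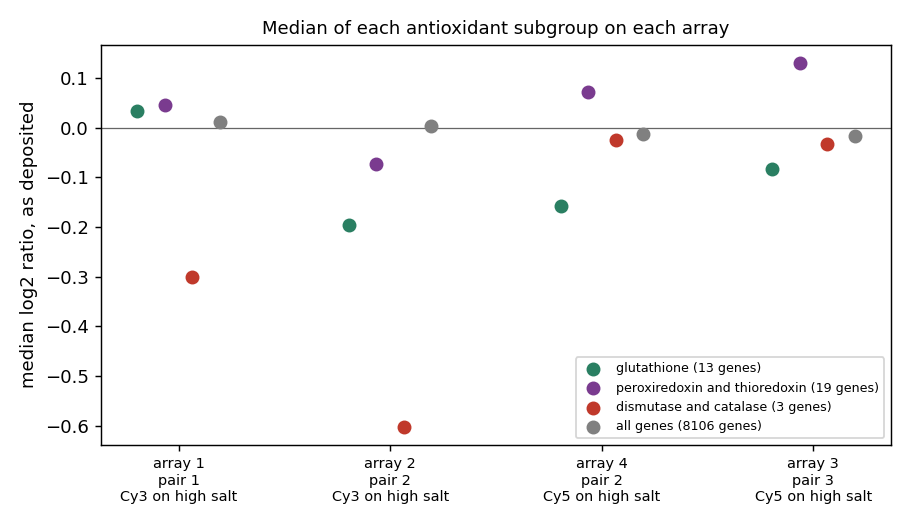
Median log2 ratio as deposited (y axis) of each antioxidant subgroup and of all genes (colours) on each array (x axis, the arrays of pair 2 side by side). As deposited, the thioredoxin median lies above the glutathione median on each array, an order that turning reverses on arrays 1 and 2, and the dismutase and catalase median departs from 0 on arrays 1 and 2, to -0.30 and -0.60.

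The spread of the antioxidant genes is set beside that of all genes as a description. The median size of their mean log2 ratio was 0.11, against 0.067 over all genes, the median SD over pairs 0.17 against 0.15, and the median size of the difference between Cy5 and Cy3 arrays 0.26 against 0.19. Array 2 was low for the group, with a median of -0.14 over the 35 genes, against 0.0038 over all genes, while array 4 of the same mice had -0.010 and arrays 1 and 3 had 0.034 and 0.016. The cause was not tested.

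Of the 35 genes 6 had 2 clones, none had more, and the clones of a gene often disagreed by array. The clones of Prdx1 stood at -0.074, -0.15, 0.23 and 0.22 and at 0.17, 0.40, 0.49 and -0.053 on arrays 1 to 4, with the same sign on 1 array. Those of Gss stood at -0.19, -0.20, 0.043 and -0.0018 and at 0.49, 0.28, -0.32 and -0.058, so on arrays 1 to 3 the signs of the clones were opposite. Both clones of Gclc averaged 0.10, although their SDs over pairs were 0.28 and 0.050. Clone means were -0.016 and 0.11 for Gpx1, 0.048 and 0.093 for Txndc17, and -0.053 and 0.051 for Txnl1. Txndc17 is the gene of the 6 whose clones shared their sign on all 4 arrays. For Gpx1 the SD of the gene over pairs, 0.029, was below those of its clones, 0.073 and 0.13.

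**Figure D4:**
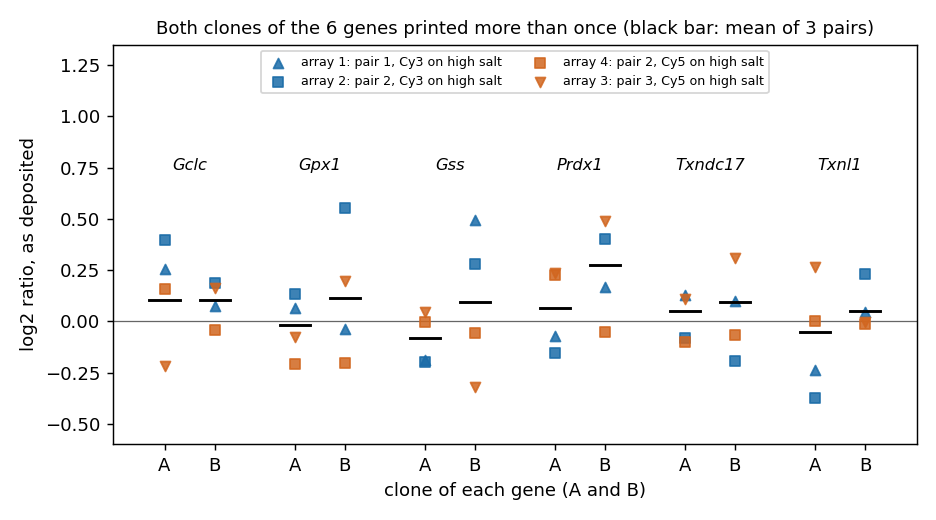
Log2 ratio as deposited (y axis) of both clones, A and B, of the 6 antioxidant genes with 2 clones (x axis) on the 4 arrays (symbols), with a black bar for the mean of 3 pairs. The 2 Gclc clones share a mean of 0.10 but not a spread, and the Gss clones have opposite signs on arrays 1 to 3.

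Other genes of the Nrf2 pathway and of NADPH supply were described from a list of 33, of which 23 were measured. Means lay above 0 for 14 as deposited and 12 with arrays 1 and 2 turned, against 4040 and 3784 of all 8106 genes. None of the 23 passed after adjustment by limma. An unadjusted p under 0.05 was reached by 5 of the 23, against 5.44% of all genes, 3 with means above and 2 below 0. Turned, 5 did, against 20.8% of all genes. Hmox1, heme oxygenase, averaged 1.78 ± 0.39, and the metal-binding metallothioneins Mt1 and Mt2 0.89 ± 0.39 and 1.08 ± 0.74, each above 0 on all arrays. Aldh2 and Idh2, mitochondrial enzymes that clear aldehydes and supply NADPH, averaged -0.25 ± 0.13 and -0.40 ± 0.29, each below 0 on all arrays. After turning arrays 1 and 2, Hmox1 was at -0.27, Mt1 at -0.34, Mt2 at -0.69, Aldh2 at 0.0014 and Idh2 at 0.24. The median of this list was 0.057 as deposited and 0.0014 with arrays 1 and 2 turned. Nfe2l2 itself averaged -0.18 ± 0.13, and 0.11 ± 0.24 turned.

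Of 23 selenium and other thiol redox genes 19 were measured, with a median of -0.019. As deposited none of them had an unadjusted p under 0.05, against 5.44% of all genes. With arrays 1 and 2 turned 2 of them did, against 20.8% of all genes. Those with 1 sign on all arrays were Pdia4 at 0.32 ± 0.25 and P4hb at 0.027 ± 0.017, both disulfide isomerases, at -0.14 and 0.015 with arrays 1 and 2 turned. Of 18 oxidant sources 9 were measured, with a median of 0.015 and none under that threshold. Rac1, a small GTPase that activates NADPH oxidase, averaged 0.13 ± 0.044 with all arrays above 0 (-0.011 turned), and Nos2, the inducible nitric oxide synthase, -0.10 ± 0.060 with all below (-0.025 turned).

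Markers of other cell types are given beside these values. Of 10 fibroblast markers measured 9 had means above 0 as deposited and 5 with arrays 1 and 2 turned, against 4040 and 3784 of all 8106 genes. An unadjusted p under 0.05 was reached by 4 of the 10 as deposited, all above 0, against 2.81% of all genes. Turned, 0 of the 10 reached it, against 20.8% of all genes in either direction. The list had medians of 0.24, 0.21 and 0.34 in pairs 1 to 3 as deposited, and of -0.00070 over pairs with arrays 1 and 2 turned. The 4 leukocyte markers had medians of 0.039, 0.11 and -0.055, the 2 red cell markers -0.088, 0.017 and 0.013, and the 4 cardiomyocyte markers -0.075, -0.029 and 0.12. Medians were 0.066, 0.078 and 0.096 for 6 endothelial markers, 0.011, -0.0065 and 0.11 for 6 adipocyte markers, and 0.021, 0.29 and -0.013 for 3 smooth muscle markers. With arrays 1 and 2 turned, medians over pairs were 0.078 for leukocyte, 0.0070 for red cell and 0.13 for cardiomyocyte markers. They were 0.065 for endothelial, 0.054 for adipocyte and -0.0092 for smooth muscle markers. Of the 6 endothelial markers 3 had means below 0 as deposited, against 50.2% of all genes. Turned, 3 of these 6 had an unadjusted p under 0.05 by limma, against 20.8% of all genes. They differed in direction, with Cdh5 at -1.23, Tek at 0.18 and Emcn at 0.28. As deposited, 1 of the 4 leukocyte markers, Cd14 at -0.39, and 1 of the 6 adipocyte markers, Fabp4 at 0.37, reached that threshold, against 5.44% of all genes. The part of these cells in the antioxidant values was not tested.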

How the data were processed

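The deposited table holds the authors' log ratios, which were treated as log2. Its base, background correction, normalization and direction were not stated in what was used, and each array's median lay between -0.0062 and 0.010. Of 17664 features, 17207 had a value on all 4 arrays and 457 on none. Names came from the platform annotation (1 symbol for 12563 features, several for 412, none for 4689). No intensities were used, so dim clones could not be filtered and precision is limited by having 4 arrays.

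Clones of 1 symbol were averaged per gene and arrays 2 and 4, of the same mice, were averaged into 1 pair. Whether the mean of the 3 pair values departs from 0 was tested by limma (version 3.58.1, R version 4.3.3, lmFit and eBayes), adjusted by Benjamini-Hochberg over 8106 genes. The fit was also run on simulated data with independent noise and no dye effect, which does not cover the dye differences of these arrays. P-values rest on the spread between the 3 pair values, with each gene's variance drawn by eBayes toward that of all genes. Pair 1 had Cy3 and pair 3 had Cy5 on high salt, so this spread mixes animal and dye differences.

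The members and lists were chosen with earlier results of these data known, and the promoter patterns and the genes shown with them after values had been seen. Array values are given for the 4 genes of smallest p per subgroup, genes with 1 sign on all arrays, the 3 of largest dye difference and, clone by clone, genes with 3 or more clones, of which there were none. Clones of genes with 2, Mgst3 and Nfe2l2 were added after their values were seen. Listed pathway genes were named where 1 sign held on all arrays, at most 5 a list by p. Alternatives were leaving out a pair, 1 array of pair 2, turned arrays, scaling, centring, the median of clones, single clones and a dye covariate.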

Additional observations from a re-analysis of the deposited data

How the results depend on the processing

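No gene of the 8106, and no antioxidant gene, passed an adjusted p of 0.05 under any alternative run. The number of antioxidant genes at an unadjusted p under 0.05 by limma was 5 as reported. It was 3 (Gstm7, Msrb1 and Sod2) when pair 2 was read only from its Cy3-high-salt array (4.90% of all genes). With a dye covariate it was 10 (14.7% of all genes). The covariate left the mean of each of the 35 genes unchanged and altered only the estimate of spread. When a pair was left out the number was 1 to 5, lowest without pair 2. The shares of all genes were then 1.79% without pair 2, 4.03% without pair 1 and 10.5% without pair 3. The 5 without pair 3 were Gstm7, Sod2, Prdx3, Sod1 and Txndc5, so Txnip, Glrx and Glrx5 were not among them. The number with 1 sign on all arrays was 11 with arrays 1 and 2 turned (31.3% of all genes), against 7 as reported (14.8% of all genes). With the arrays centred it was 6 of 35, and clone by clone 6 of 41. The shares of all genes under these 2 alternatives were not taken. The dismutase and catalase median was -0.041 when pair 2 was read only from its Cy5-high-salt array, 0.086 with arrays turned and -0.30 to -0.056 when a pair was left out, and the glutathione median ran from -0.11 to 0.0072 when a pair was left out. Scaling and centring turned no sign of the 35 genes. The median of 1 or 2 clones equals their mean, so taking it could not change any of the 35 values. The cause of the changes below was not tested.

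With arrays 1 and 2 turned, 16 of 35 genes changed sign, to -0.59 for Txn2, -0.42 for Txnl4a, -0.35 for Msrb1, -0.28 for Txndc5, -0.16 for Txn1, -0.11 for Gss, -0.10 for Gclc, -0.076 for Gpx1, -0.063 for Msra, 0.012 for Mgst3, 0.086 for Cat, 0.087 for Txnl1, 0.20 for Glrx5, 0.21 for Glrx3, 0.26 for Prdx3 and 0.38 for Sod1. When pair 2 was read only from its Cy3-high-salt array, Gpx3 turned to 0.040, Gsto1 to -0.045, Msrb3 to -0.034 and Txndc2 to -0.027. When it was read only from its Cy5-high-salt array, Gpx1 turned to -0.044, Gss to -0.0052, Msra to -0.016, Txn1 to -0.018, Txn2 to -0.012 and Txnl1 to 0.010. When a pair was left out, the mean of Gpx3 ran from -0.053 to 0.031, Gss from -0.067 to 0.080, Gstm5 from -0.27 to 0.037, Gsto1 from -0.12 to 0.22, Mgst1 from -0.13 to 0.17, Msra from -0.024 to 0.050, Msrb3 from -0.096 to 0.13, Prdx2 from -0.083 to 0.13, Txn1 from -0.048 to 0.13, Txn2 from -0.36 to 0.43, Txndc2 from -0.041 to 0.036, Txndc5 from -0.022 to 0.59, Txnl1 from -0.067 to 0.046 and Txnl4a from -0.11 to 0.39.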
